A study of Mus musculus with 8 samples.

Results

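The epidermal differentiation complex is a run of genes on mouse chromosome 3 that is switched on as keratinocytes leave the basal layer and become the dead, cornified surface of the skin. It was read here in keratinocytes of InvEE mice that either kept or lacked Hmgb1, which encodes a chromatin protein and, once released, an alarm signal. Members were taken by symbol: every Lce, Sprr and S100a gene, the genes named Flg2, Hrnr, Rptn, Tchh, Tchhl1, Crnn, Crct1, Ivl and Lor, and the peptidoglycan recognition genes Pglyrp3 and Pglyrp4. This gave 62 of the 24421 symbols counted, all of which RefSeq places on chromosome 3 of GRCm38.p6 (mm10), between 90511034 and 93564645. Of these, 37 had enough counts to be tested, 21 had counts but were too low, and 4 were at 0 in every library. Flg, which the rule also names, was not analysed here.

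The controls were 4 libraries labelled InvEE K5 Cre- HMGB1 fl/fl, and the knockouts were 4 libraries labelled InvEE K5 Cre+ HMGB1 fl/fl, all of skin keratinocytes from the cross CBA x C57Bl/6J. Both groups therefore carried the floxed Hmgb1 alleles and the InvEE transgene, an activated MEK1 kinase driven by the promoter of involucrin, which is itself a gene of the complex and is active in the layers above the basal one. Only the knockouts carried Cre, driven by the keratin 5 promoter of basal keratinocytes, so an effect of Cre and one of losing Hmgb1 cannot be told apart. The sources used here give neither the ages of the mice nor whether each library came from 1 animal, so p-values reflect only how these libraries spread, part of which may be technical.

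The complex encodes the building material of the cornified envelope. Involucrin (Ivl), loricrin (Lor), the small proline-rich proteins (Sprr) and the late cornified envelope proteins (Lce) are cross-linked under the cell membrane by transglutaminases. The S100 fused-type proteins, such as filaggrin 2 (Flg2) and hornerin (Hrnr), bundle or embed keratin filaments, and the S100a genes encode small calcium-binding proteins, some of which act as alarm signals of stressed or inflamed skin.

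The libraries held 30506676 to 34229030 counts on genes, so that 1 count was worth 0.0279 to 0.0358 CPM, the usual scaling of counts to library size, here on TMM-scaled totals. Hmgb1 was at 565 to 615 CPM in control libraries and 113 to 126 CPM in knockout libraries (log2 fold change -2.32, SE 0.09, edgeR adjusted p = 3.576e-07). Basal keratinocyte markers (6 genes) summed to 47303 to 56878 CPM. Markers of other cell types were present at far lower sums, of at most 73.8 CPM for Langerhans cells, 24.0 for fibroblasts, 14.4 for macrophages, 10.4 for neutrophils, 4.65 for melanocytes, 1.91 for endothelium and 0.739 for T cells (3 of 5 listed were counted). Suprabasal markers (Krt1, Krt10, Sbsn, Krtdap and Dsg1a) summed to 8408 to 13308 CPM in control libraries and 14166 to 18236 CPM in knockout libraries, with no overlap (exact two-sided permutation p = 0.0286, the smallest that 4 against 4 allows). Among all tested genes taken singly, 7.96% were likewise higher in the knockout with no overlap. Krt10 was the largest part of the sum, with means of 5091 CPM in control and 9019 CPM in knockout libraries. Singly, 2 of the 5 were called higher, Krt10 and Sbsn, beside 4.33% of all tested genes. Krt1, Krtdap and Dsg1a were not called (edgeR adjusted p = 0.357, 0.0952 and 0.0703), and for each of them the groups overlapped. A larger share of suprabasal cells and more RNA per suprabasal cell cannot be told apart in bulk libraries. The part of the summed difference in the results below was not tested. Transcripts of Y-linked genes were found in knockout replicate 1 and control replicates 2 and 3 (6110 to 6743 counts) and near 0 in the others (0 to 51 counts), so the sexes were unevenly spread. The 5 libraries lacking them were control replicates 1 and 4 and knockout replicates 2, 3 and 4.

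None of the 37 tested members passed the test between knockout and control. In the same fit, 2 of 3 tested neighbours in the interval and 4 of 25 regulators passed. So did 2 of 13 processing genes, 5 of 15 other envelope and suprabasal genes and 0 of 6 partners and receptors. Whether the members differ from these lists was not tested. Each gene was tested with edgeR's quasi-likelihood test, with Benjamini-Hochberg adjustment across all 13016 tested genes and a threshold of 0.05. In that fit 8.87% of all tested genes were called, 4.33% higher and 4.54% lower in the knockout (563 and 591 genes, or 370 and 997 with library totals in place of TMM). At an unadjusted p under 0.05 there were 11 members (29.7%) against 26.2% of all tested genes, and the smallest adjusted p of a member was 0.068. DESeq2, which gave no adjusted p for S100a9, called 5 of the other 36 against 15.5% of all genes with an adjusted p, namely Ivl, Sprr1a and Hrnr higher and S100a4 and Tchh lower, and limma-voom called 0, with 8 at an unadjusted p under 0.05. On simulated data, 15.9% of DESeq2's calls fell on unchanged genes, against 4.64% of edgeR's. The log2 fold changes of the members ran from -2.12 to 1.13, with a median of 0.10 beside -0.02 over all tested genes, and 20 were positive and 17 negative. The control and knockout libraries did not overlap for 1 member, Ivl (2.7%), against 17% of all tested genes, or 7.96% in its direction, higher in the knockout.

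**Figure D1:**
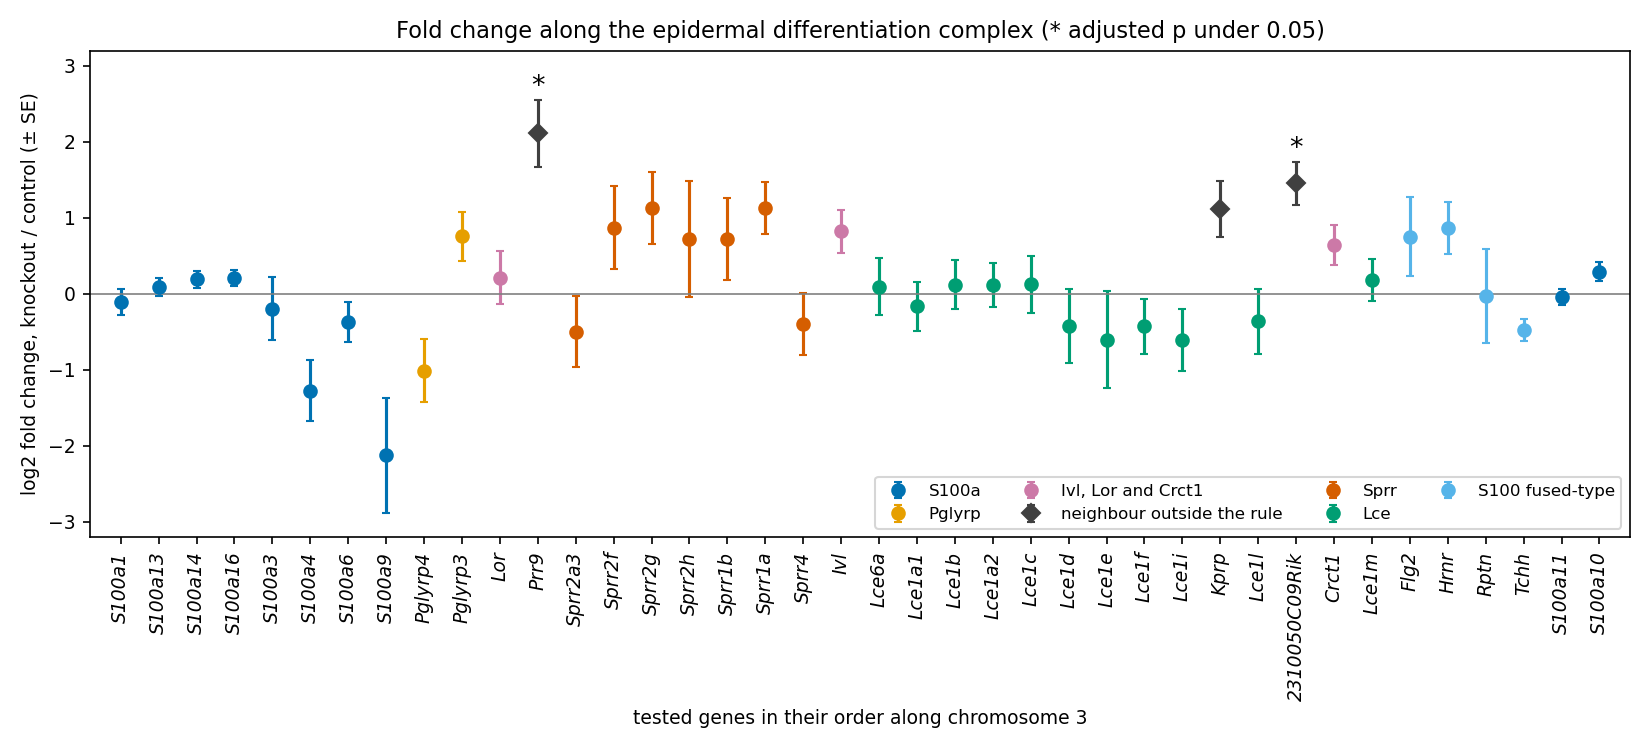
Log2 fold change between knockout and control (y axis, points; bars are ± SE of the fit) for the 37 tested members and the 3 tested neighbours outside the rule (diamonds), in their order along chromosome 3 (x axis); colours give the family and asterisks an adjusted p under 0.05. The 2 asterisks are on Prr9 and 2310050C09Rik, and no member has one.

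Levels within the complex spanned orders of magnitude, led by S100a genes. Together the 62 members took 0.218 to 0.287% of the gene counts, and the S100a genes made up 1793 to 2402 CPM of it. Divided by exon length (GENCODE M21), S100a11 was highest in controls, at 1136 ± 71.8 CPM per kilobase (SD, n = 4). However, 41.1% of its 50-base windows also occur in another gene, with Gm12854 sharing the most, so its count is uncertain. S100a10 (319.9 ± 17.2 CPM per kilobase) and S100a14 (303 ± 29.1) came next and did not differ beyond their spread. Sprr1a (174 ± 38.4), S100a6 (169 ± 53.5) and S100a16 (157 ± 13.4) then lay within each other's spread. Transcripts of other envelope and filament-binding proteins were lower on this scale, with Ivl at 23.5 ± 7.92, Lor at 17.3 ± 6.59, Hrnr at 0.592 ± 0.161 and Flg2 at 0.345 ± 0.155 CPM per kilobase. No tested Lce gene exceeded the 3.71 ± 1.52 CPM per kilobase of Lce1m.

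Among the envelope precursors, involucrin showed the clearest separation of the groups. Ivl (chromosome 3, 92570899 to 92573790), the scaffold on which the envelope is assembled, was at 24.8, 42.4, 56.3 and 57.3 CPM in control replicates 1 to 4 and at 72.5, 115, 63.7 and 69.5 CPM in knockout replicates 1 to 4. Every knockout library was above every control library, with knockout replicate 2 highest. The means were 45.2 ± 15.2 and 80.1 ± 23.3 CPM (SD, n = 4 each), and the log2 difference was 0.83 (SE 0.28, edgeR adjusted p = 0.106, exact two-sided permutation p = 0.0286). DESeq2 gave an adjusted p of 0.0146, and among the 5 libraries lacking Y-linked transcripts the log2 fold change was 1.01 (edgeR adjusted p = 0.409). Lor, the glycine-rich main protein of the mature envelope, was at 40.9, 14.4, 30.8 and 37.2 CPM in control libraries and 32.7, 52.2, 36.7 and 21.5 CPM in knockout libraries, so the groups overlapped almost fully (log2 0.21, SE 0.35, edgeR adjusted p = 0.743). Crct1, a cysteine-rich gene between Lce3f and Lce1m, was at 6.73 ± 1.28 and 10.5 ± 3.92 CPM (SD, n = 4 each, edgeR adjusted p = 0.153), with 3 of its knockout libraries above all controls. Without knockout replicate 4, at 5.71 CPM the lowest of its group, Crct1 passed the test (log2 0.86, edgeR adjusted p = 0.0407). Of 19 alternative fits, only this 1 called it.

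**Figure D2:**
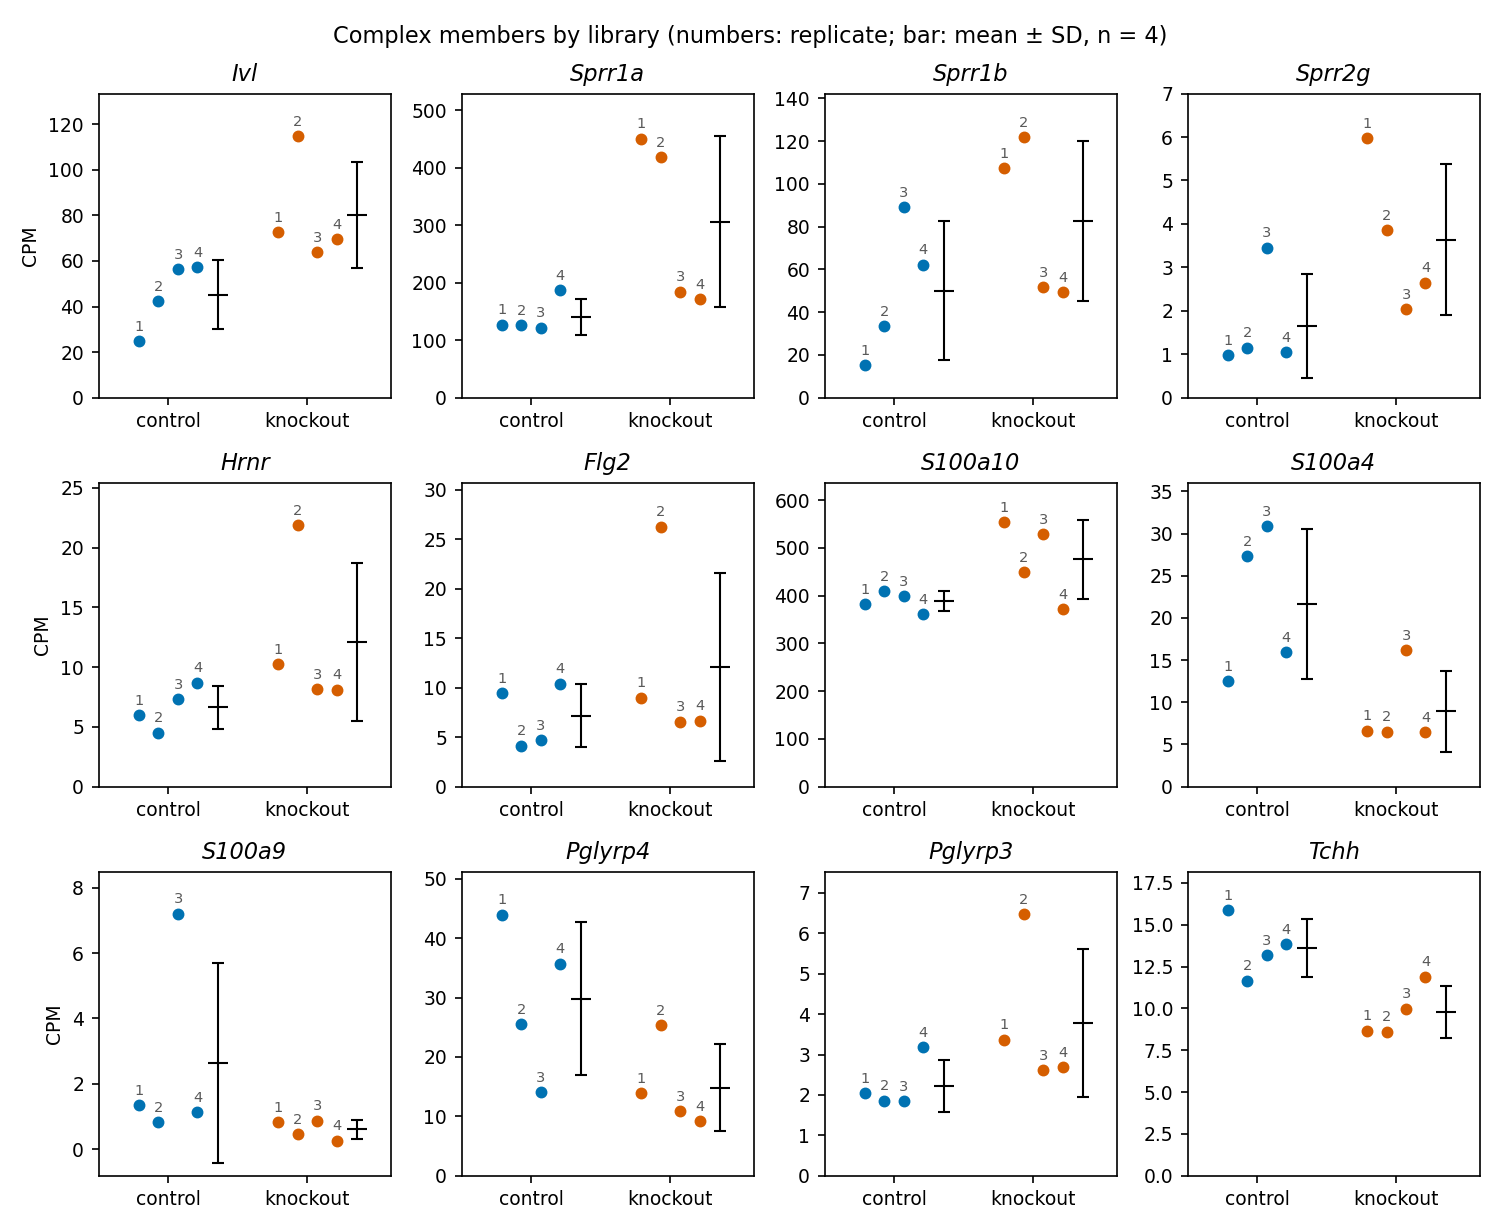
CPM (y axis) of 12 members in the 4 control (blue) and 4 knockout (orange) libraries (x axis), with replicate numbers beside the points and black bars for mean ± SD (n = 4). The Ivl groups do not overlap (24.8 to 57.3 against 63.7 to 115 CPM), Sprr1a is highest in knockout replicates 1 and 2, Flg2 and Hrnr in knockout replicate 2, and S100a9 is high in control replicate 3 alone.

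The Sprr genes encode proline-rich proteins that bridge other envelope proteins and are induced by stress and wounding. Over 7 tested of 16 members, their median log2 fold change was 0.72. Of the 7, 0 were called and 2 had an unadjusted p under 0.05, beside 8.87 and 26.2% of all tested genes. Leaving out 1 library gave medians from 0.42, without control replicate 1, to 1.16, without control replicate 3, and 0.48 without knockout replicate 1. Sprr1a (92483954 to 92485881) was at 127, 126, 122 and 187 CPM in control libraries and 451, 419, 184 and 171 CPM in knockout libraries. Knockout replicates 1 and 2 were far above the rest, whereas knockout replicates 3 and 4 lay beside control replicate 4. Its log2 fold change was 1.13 (SE 0.34, edgeR adjusted p = 0.0783), and it passed the test without knockout replicate 3 or 4 (adjusted p = 0.0473 and 0.0454) and with DESeq2 (adjusted p = 0.0288). These were the only 3 calls of Sprr1a in 19 alternative fits, and the libraries left out were its lowest knockouts.

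Sprr1b, Sprr2h and Sprr2g were also highest among knockouts in replicates 1 and 2, but differed more among controls. Sprr1b was at 15.3, 33.6, 89.1 and 62.2 CPM in control libraries and 107, 122, 51.7 and 49.3 CPM in knockout libraries (log2 0.72, SE 0.54, edgeR adjusted p = 0.44). Sprr2h was at 0.53, 2.01, 9.05 and 1.78 CPM in control libraries and 8.30, 7.20, 3.98 and 2.52 CPM in knockout libraries, with the highest value of all in control replicate 3. Sprr2g, which RefSeq lists as a transcribed pseudogene, was at 0.977, 1.15, 3.45 and 1.05 CPM in control libraries and 5.98, 3.86, 2.04 and 2.65 CPM in knockout libraries. Control replicate 3 again stood above the other controls, and without it Sprr2g passed the test (log2 1.77, edgeR adjusted p = 0.0195, against 0.165 with it). Of 19 alternative fits 2 called Sprr2g, this one and the fit with a term for Y-linked transcripts. Over the 7 tested Sprr genes, control replicate 3 was the highest control for 6 and control replicate 1 the lowest for 6, and knockout replicate 1 was the highest knockout for 5. Sprr2f had group means of 0.569 ± 0.444 and 1.04 ± 0.599 CPM, and Sprr4 of 0.415 ± 0.132 and 0.314 ± 0.142 CPM (SD, n = 4 each). Sprr2a3 was at 53.3 CPM in control replicate 3 and at 19.2 CPM or less in the other 7 libraries.

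Counts of the Sprr2a genes cannot be read singly. Of the 50-base windows of the Sprr2a1 and Sprr2a2 transcripts, 96.3 and 96.5% also occur in another gene, and both were listed at 0, whereas 61.1% do for Sprr2a3. Sprr3, a gene of internal stratified epithelia, was also at 0 and shares 0% of its windows, which allows up to 3 counts, or 0.0837 to 0.107 CPM, in a library.

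The promoters of Ivl, Sprr1a, Sprr1b and Lor are shown because these are the most abundant precursor genes of the complex and all 4 hold the same short motif, although the libraries separated by genotype for Ivl alone. Each window runs 5′ to 3′ on the minus strand from 250 bases before to 50 bases after a RefSeq start (GRCm38.p6), the first listed for the gene. For Ivl and Sprr1b this start lies inside the RefSeq span, whose upstream ends are 92573790 and 92438817. The windows are at chr3:92573686-92573985, chr3:92485832-92486131, chr3:92438730-92439029 and chr3:92083093-92083392. Capitals mark TGANTCA, where N is any base, a pattern that takes in TGACTCA and TGAGTCA, the core letters bound by AP-1 (dimers of Fos and Jun proteins). The match in Sprr1b is TGAATCA, which is outside that core.
Ivl: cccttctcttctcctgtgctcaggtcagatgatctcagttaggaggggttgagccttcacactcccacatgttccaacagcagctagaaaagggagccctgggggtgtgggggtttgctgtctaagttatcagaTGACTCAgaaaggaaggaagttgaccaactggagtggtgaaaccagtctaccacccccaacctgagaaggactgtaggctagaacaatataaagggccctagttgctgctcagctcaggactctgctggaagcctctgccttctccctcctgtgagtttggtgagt
Sprr1a: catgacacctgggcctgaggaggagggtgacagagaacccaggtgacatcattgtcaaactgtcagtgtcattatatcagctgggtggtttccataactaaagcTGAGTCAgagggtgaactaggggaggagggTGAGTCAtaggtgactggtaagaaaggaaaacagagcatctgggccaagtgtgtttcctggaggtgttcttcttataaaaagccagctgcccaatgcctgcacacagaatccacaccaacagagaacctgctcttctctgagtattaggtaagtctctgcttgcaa
Sprr1b: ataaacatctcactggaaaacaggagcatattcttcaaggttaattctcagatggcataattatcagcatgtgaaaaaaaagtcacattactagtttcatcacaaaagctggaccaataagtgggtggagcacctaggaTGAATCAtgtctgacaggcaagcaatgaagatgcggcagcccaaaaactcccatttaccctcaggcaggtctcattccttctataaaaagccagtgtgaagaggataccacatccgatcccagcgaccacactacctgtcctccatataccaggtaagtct
Lor: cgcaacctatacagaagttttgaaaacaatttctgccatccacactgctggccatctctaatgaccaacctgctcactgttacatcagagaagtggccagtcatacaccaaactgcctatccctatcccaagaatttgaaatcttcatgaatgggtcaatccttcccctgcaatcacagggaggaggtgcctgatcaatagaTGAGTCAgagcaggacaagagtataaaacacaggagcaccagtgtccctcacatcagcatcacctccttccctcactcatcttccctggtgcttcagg

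Counted from the start sites used, the motif starts at -116 in Ivl, at -146 and -116 in Sprr1a, at -111 in Sprr1b and at -48 in Lor. Its reverse complement is the same motif, so both strands are covered. It occurs in 7.9% of 27025 RefSeq promoters of this length and in 16 of the 53 members that have one. Of these 16, 9 are among 14 Sprr promoters, with the motif of Sprr2b, Sprr2d, Sprr2e, Sprr2f, Sprr2h, Sprr2i and Sprr2k starting between -198 and -182. It occurs in 0 of 20 Lce promoters and 1 of 11 S100a promoters. TATAAA, searched on both strands, occurs in 22 of the 53 and in 14.2% of all promoters, and CCACCC, also on both strands, in 16 of the 53 and in 30.9% of all. These are matches of letters and not measured binding. Of the 6 AP-1 subunits measured, 0 passed edgeR's test, beside 8.87% of all tested genes. An unadjusted p under 0.05 was found for 1 of them, Fos, beside 26.2%. Fos was also called by DESeq2, beside its 15.5% of all genes. Fos itself was at 2342, 2341, 2158 and 1764 CPM in control libraries and 805, 971, 1338 and 1930 CPM in knockout libraries (log2 -0.77, SE 0.25, edgeR adjusted p = 0.0798).

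The Lce genes are expressed last and reinforce the envelope from within. Every tested Lce gene overlapped between genotypes, beside 17% of all tested genes that did not. Of 21 members 11 were tested, and 0 had even an unadjusted p under 0.05, against 26.2% of all tested genes. Log2 fold changes ran from -0.61 to 0.18 with a median of -0.16. Lce1m, the most abundant, was at 4.88, 2.30, 2.25 and 4.64 CPM in control libraries and 4.08, 3.40, 4.62 and 3.88 CPM in knockout libraries, with all knockouts inside the control range. Lce1a1 was at 2.22 ± 0.841 and 1.98 ± 0.62 CPM and Lce1a2 at 1.70 ± 0.719 and 1.84 ± 0.269 CPM (SD, n = 4 each). Lce1i had the smallest p of the family, at 0.503 ± 0.28 CPM in control libraries and 0.33 ± 0.0429 CPM in knockout libraries (log2 -0.61, SE 0.40, edgeR adjusted p = 0.372). Lce1f (log2 -0.42, SE 0.36) and Lce1e (log2 -0.60, SE 0.64) came next, and Lce1b, Lce1c, Lce1d, Lce1l and Lce6a had log2 fold changes of 0.12, 0.12, -0.42, -0.36 and 0.10.

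Differences between libraries were, by contrast, shared by many Lce genes. Control replicate 4 was the highest control for 8 of the 11 and control replicate 2 the lowest for 8, and knockout replicate 3 was the highest knockout for 10. Summed over the family, control replicates 1 to 4 were at 15.2, 9.29, 15.3 and 25.5 CPM and knockout replicates 1 to 4 at 13.2, 13.3, 18.3 and 15.8 CPM. This order is not that of the Sprr genes, which were summed at 156, 182, 281 and 265 CPM in control libraries and at 595, 570, 261 and 242 CPM in knockout libraries. Up to 27.1% of the 50-base windows of a tested Lce transcript, in Lce1i, occur in another gene, mostly another Lce1 gene, so single Lce counts are uncertain. The part of shared sequence in the order of the libraries was not tested.

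**Figure D3:**
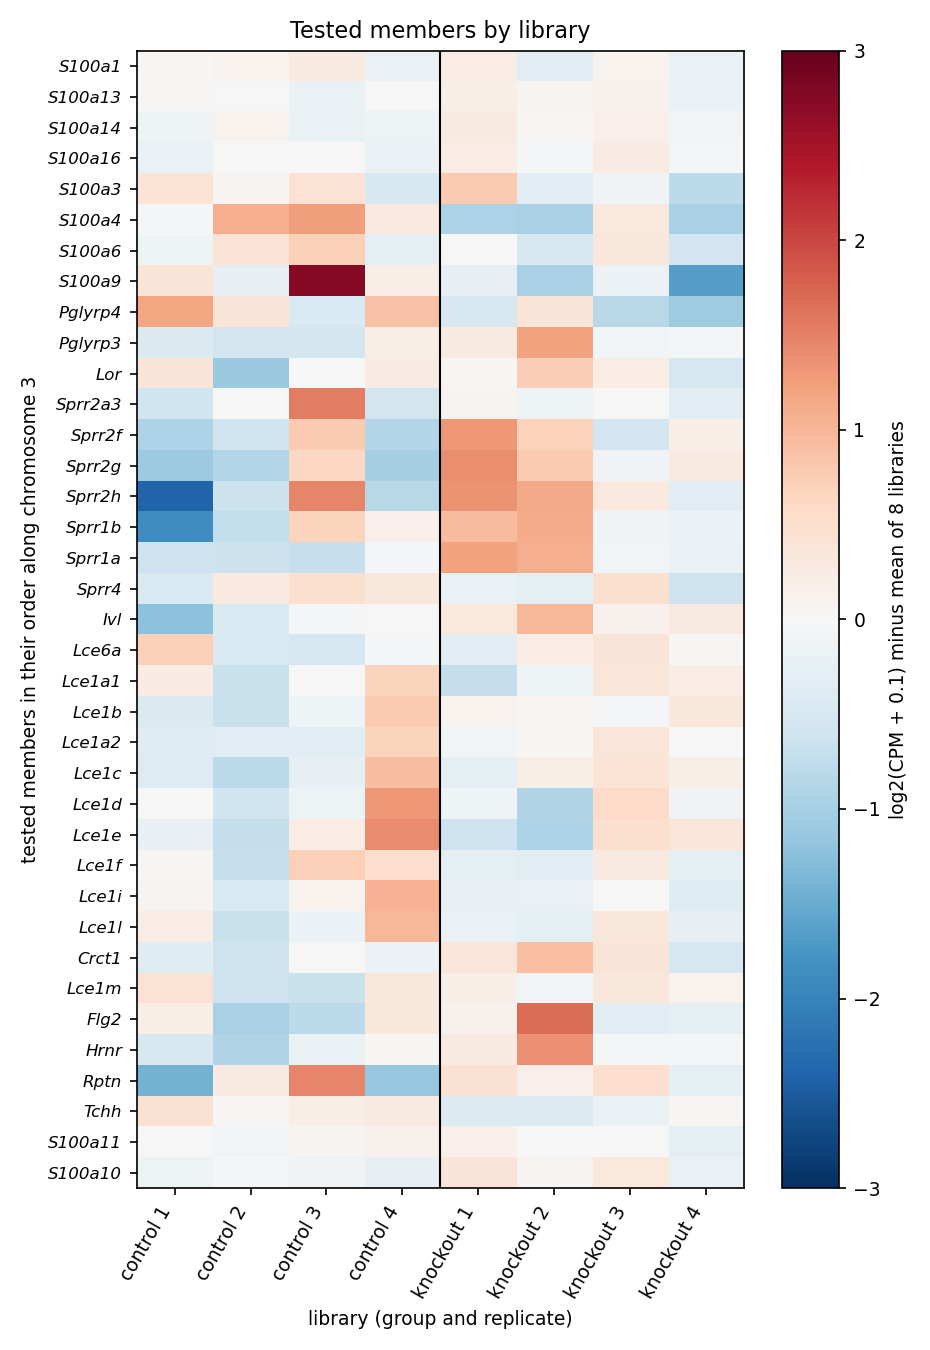
Log2(CPM + 0.1) of the 37 tested members minus the mean of the 8 libraries (colour), with members in their order along chromosome 3 (rows) and libraries in columns, controls left of the black line. Sprr2f to Sprr1a are red in knockout replicates 1 and 2, most Lce1 genes are red in control replicate 4, and S100a9, Sprr2a3 and Rptn are red in control replicate 3.

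Of 6 S100 fused-type genes 4 were tested and 0 called, beside 8.87% of all tested genes. An unadjusted p under 0.05 was found for 2 of the 4, beside 26.2%, and estimates had both signs. Flg2, which is processed like filaggrin and holds water and filaments in the outermost layers, was at 9.46, 4.12, 4.71 and 10.4 CPM in control libraries and 8.98, 26.2, 6.56 and 6.66 CPM in knockout libraries (log2 0.75, SE 0.52, edgeR adjusted p = 0.399). Hrnr was at 5.97, 4.50, 7.33 and 8.70 CPM in control libraries and 10.3, 21.9, 8.18 and 8.11 CPM in knockout libraries (log2 0.87, SE 0.34, edgeR adjusted p = 0.144). For both, knockout replicate 2 stood above all other libraries, and without it the log2 fold changes were 0.04 and 0.42. Rptn, encoding repetin, ranged from 0.363 to 3.32 CPM in control libraries and from 0.915 to 1.65 CPM in knockout libraries. Tchh, encoding trichohyalin of the inner root sheath of hair, had the smallest adjusted p of all members, 0.068. It was at 15.9, 11.7, 13.2 and 13.8 CPM in control libraries and 8.66, 8.61, 9.99 and 11.9 CPM in knockout libraries, so only control replicate 2 and knockout replicate 4 broke the separation (log2 -0.48, SE 0.15). DESeq2 called it (adjusted p = 0.0254), as did the fit with a term for Y-linked transcripts (adjusted p = 0.0429). The 11 keratins listed for the inner root sheath and hair shaft summed to 4.13 to 13.6 CPM in control libraries and 3.81 to 7.20 CPM in knockout libraries, with Krt72 and Krt82 at 0 in every library, and their part in the Tchh values was not tested. Crnn had 15 counts over all libraries and Tchhl1 had 0.

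Of the S100a genes, 10 of 14 were tested and 0 were called, beside 8.87% of all tested genes. An unadjusted p under 0.05 was found for 3 of the 10, beside 26.2%. The abundant S100a genes were close between genotypes. S100a11, a partner of annexin A1 and a substrate of envelope cross-linking, was at 580 ± 36.7 CPM in control libraries and 563 ± 63.4 CPM in knockout libraries (SD, n = 4 each, log2 -0.04, SE 0.11). S100a14 was at 523 ± 50.2 and 598 ± 64.6 CPM, and S100a16 at 254 ± 21.6 and 293 ± 33.1 CPM (log2 0.19 and 0.21, SE 0.11 for each). S100a10, which pairs with annexin A2 at the membrane, was at 383, 409, 399 and 361 CPM in control libraries and 554, 449, 529 and 371 CPM in knockout libraries (log2 0.29, SE 0.13, edgeR adjusted p = 0.168). Its partner Anxa2 was at 2294 ± 55.5 and 2738 ± 279.5 CPM (SD, n = 4 each, edgeR adjusted p = 0.144). S100a13, S100a1 and S100a3 had log2 fold changes of 0.09, -0.11 and -0.19. The annotated spans of S100a1 and S100a13 overlap on opposite strands, so their counts are uncertain without the strand. Those of S100a2 and S100a3 overlap on the same strand, so the strand would not separate them, and their counts are also uncertain.

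S100a4 and S100a6, calcium-binding proteins made by many motile and stromal cells as well as keratinocytes, were lower on average in knockouts without passing the test. S100a4 (90603770 to 90606045) was at 12.5, 27.3, 30.8 and 15.9 CPM in control libraries and 6.62, 6.51, 16.2 and 6.47 CPM in knockout libraries. Knockout replicate 3 overlapped the controls, and the other knockouts were below all of them (log2 -1.27, SE 0.40, edgeR adjusted p = 0.0827). It passed the test without knockout replicate 3 (log2 -1.73, adjusted p = 0.0158) and with DESeq2 (adjusted p = 0.00363). Of 19 alternative fits 3 called it, these and the one with a replicate block. The controls with Y-linked transcripts were the highest, whereas knockout replicate 1, which also had them, was at 6.62 CPM. In the 5 libraries without them, knockout replicate 3 included, the log2 fold change was -0.55 (edgeR adjusted p = 0.643). Of the 50-base windows of S100a4, 56.3% also occur in another gene, with Gm42674 sharing the most. This also makes the count of S100a4 uncertain. S100a6 was at 178, 261, 319 and 164 CPM in control libraries and 195, 139, 249 and 132 CPM in knockout libraries (log2 -0.37, SE 0.26), and among the 5 libraries lacking Y-linked transcripts its log2 fold change was 0.02. Fibroblast markers, 6 listed, summed to 5.97 to 12.03 CPM in control libraries and 3.41 to 24.0 CPM in knockout libraries. Of the 4 fibroblast markers tested 1 was called higher, beside 4.33% of all tested genes. Langerhans cell markers, 4 listed, summed to 22.6 to 73.8 CPM in control and 24.8 to 65.5 CPM in knockout libraries. The part of both marker lists in the S100a4 values was not tested.

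The alarm proteins S100a8 and S100a9, which pair as calprotectin and are abundant in neutrophils and inflamed epidermis, were low outside a single control library. S100a9 was at 1.34, 0.83, 7.20 and 1.14 CPM in control libraries and 0.823, 0.458, 0.873 and 0.252 CPM in knockout libraries (log2 -2.12, SE 0.76, edgeR adjusted p = 0.115), and without control replicate 3 its log2 fold change was -0.88. S100a8, not tested, had 8, 4, 149 and 2 counts in controls and 3, 2, 0 and 0 in knockouts. Of the 8 neutrophil markers counted, Retnlg, Ngp and Ltf were at 0 in every library, and the list summed to 10.4 CPM in control replicate 3 against 3.80 to 6.84 CPM in the others, most of it from Cxcr2 with 322 counts there. The macrophage markers, 5 listed, summed to 8.99 CPM in control replicate 3, 2.43 to 4.52 CPM in the other controls and 2.65 to 14.4 CPM in knockout libraries. Their part in the S100a8 and S100a9 values was not tested.

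The peptidoglycan recognition proteins, secreted antibacterial proteins whose genes lie on either side of a long gap in the complex, differed in sign from each other. Pglyrp4 was at 43.9, 25.5, 14.0 and 35.7 CPM in control libraries and 13.9, 25.4, 10.9 and 9.22 CPM in knockout libraries (log2 -1.01, SE 0.41, edgeR adjusted p = 0.162). Control replicate 3 lay among the knockouts, and knockout replicate 2 lay beside control replicate 2. Pglyrp3 was at 2.04, 1.85, 1.85 and 3.18 CPM in control libraries and 3.36, 6.48, 2.62 and 2.68 CPM in knockout libraries (log2 0.76, SE 0.32, edgeR adjusted p = 0.164).

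Outside the rule, 3 more genes of the interval were tested, and 2 of them rose in the knockout, beside 4.33% of all tested genes called higher. 2310050C09Rik (92868359 to 92870205), which lies among the Lce genes, was at 2.96, 2.62, 3.57 and 5.64 CPM in control libraries and 11.2, 14.0, 8.50 and 6.82 CPM in knockout libraries (log2 1.45, SE 0.28, edgeR adjusted p = 0.0143). Prr9 (92122204 to 92123947), a proline-rich gene beside Lor, was at 0.837, 0.288, 0.708 and 0.321 CPM in control libraries and 3.44, 2.03, 1.07 and 2.90 CPM in knockout libraries (log2 2.11, SE 0.44, edgeR adjusted p = 0.0175). For both, every knockout library was above every control library, as for 7.96% of all tested genes. Kprp, a keratinocyte proline-rich protein gene within the Lce cluster, was at 2.96 ± 1.47 and 6.45 ± 2.20 CPM (SD, n = 4 each, edgeR adjusted p = 0.0894). The calls of 2310050C09Rik and Prr9 held in the 8 fits that each omitted 1 library. They were lost among the 5 libraries lacking Y-linked transcripts (edgeR adjusted p = 0.178 and 0.126). That fit called 2.89% of all its tested genes, against 8.87% with all 8 libraries. An effect of sex and the smaller number of libraries cannot be told apart there. Whether these neighbours differ from the members was not tested.

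Of 25 transcription regulators of the complex reported here, 2 rose and 2 fell in the knockout, beside 8.87% of all tested genes called. Grhl3, a grainyhead factor of barrier formation, was at 33.3, 37.1, 33.7 and 46.7 CPM in control libraries and 108.5, 120, 56.6 and 72.9 CPM in knockout libraries (log2 1.25, SE 0.23, edgeR adjusted p = 0.0138). It was highest in knockout replicates 1 and 2, as were Sprr1a and Sprr1b. The order is not particular to these genes, since Gata3, Tgm1, Asprv1 and Sbsn were also highest in those 2 libraries. Gata3 rose from 272 ± 78.2 to 513 ± 117 CPM (SD, n = 4 each). Klf4, a zinc finger factor needed for the skin barrier, fell from 1575 ± 127 to 1150 ± 65.7 CPM (log2 -0.45, SE 0.10, edgeR adjusted p = 0.0211), and Maf, which acts late in differentiation, fell by 0.52 on the log2 scale. The call of Grhl3 held in the 8 fits that each omitted 1 library, whereas Klf4 lost its call in 2, Gata3 in 4 and Maf in 6. Among the 5 libraries lacking Y-linked transcripts, these 4 regulators had adjusted p of 0.0842 (Klf4) to 0.267 (Maf) with edgeR. That smaller fit called 2.89% of all its tested genes.

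**Figure D4:**
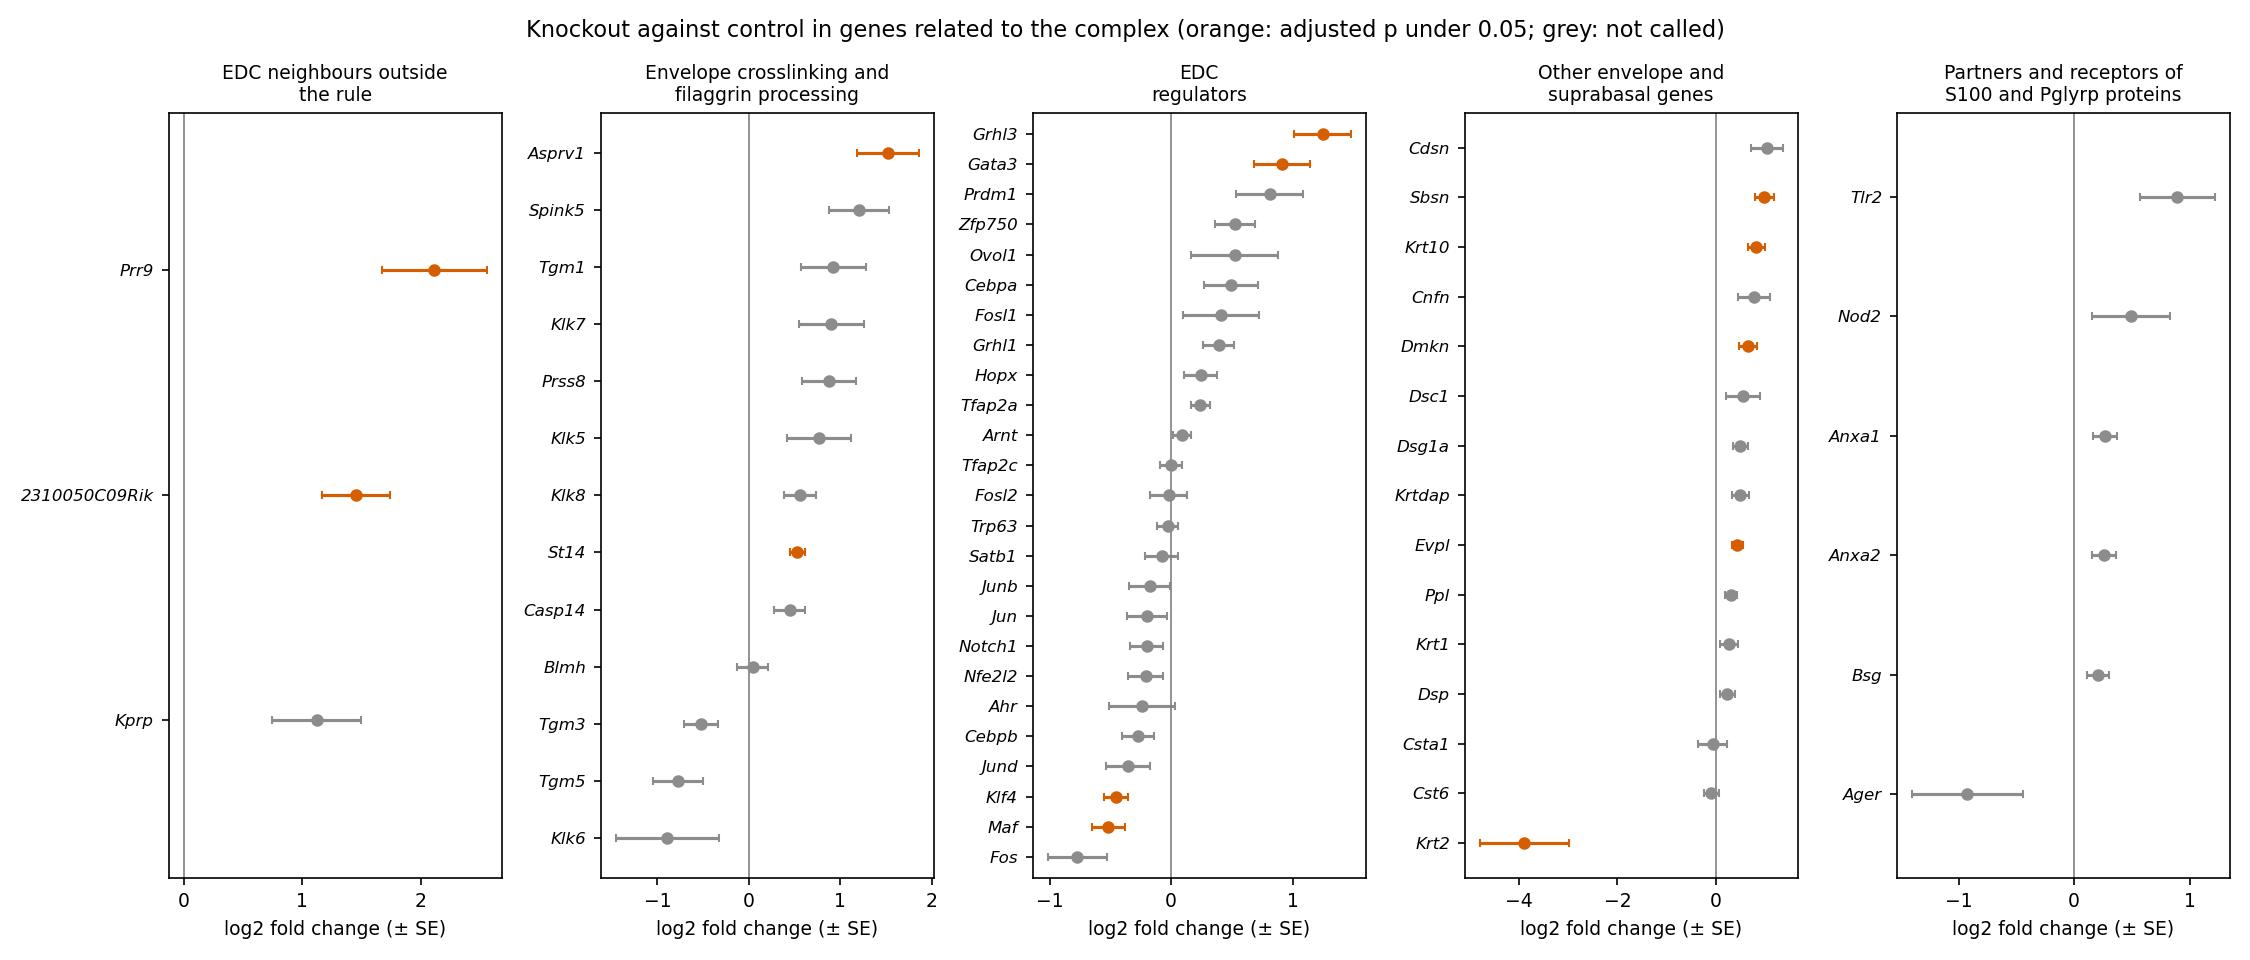
Log2 fold change between knockout and control (x axis, points; bars are ± SE of the fit) for the tested genes of 5 lists related to the complex (y axis, gene symbols; each panel has its own x scale). Orange points passed the test (adjusted p under 0.05): 2 of 3 neighbours, 2 of 13 processing genes, 4 of 25 regulators, 5 of 15 other envelope and suprabasal genes and 0 of 6 partners and receptors.

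The enzymes that cross-link and process the proteins of the complex gave 2 calls among 13 tested, both higher, beside 4.33% of all tested genes called higher. St14, encoding the protease matriptase, rose from 99.2 ± 8.19 to 143 ± 5.89 CPM (SD, n = 4 each, log2 0.53, SE 0.08, edgeR adjusted p = 0.00639), and Asprv1, which cleaves filaggrin, rose from 71.1 ± 22.1 to 203 ± 90.5 CPM (edgeR adjusted p = 0.0313). Tgm1, the main envelope cross-linking enzyme, was at 14.7, 30.8, 40.7 and 35.5 CPM in control libraries and 62.1, 88.1, 40.4 and 40.5 CPM in knockout libraries (log2 0.93, SE 0.35, edgeR adjusted p = 0.141). With 1 library omitted at a time, Asprv1 kept its call in 3 of 8 fits and St14 in 8. Of 15 other envelope and suprabasal genes, 4 rose (Krt10, Sbsn, Evpl and Dmkn) and 1 fell (Krt2), beside 4.33 and 4.54% of all tested genes. Sbsn kept its call in 8 of those fits, Krt10 in 6, Dmkn in 3 and Krt2 in 2. Among the 5 libraries lacking Y-linked transcripts, none of these 5 nor St14 and Asprv1 was called (edgeR adjusted p 0.0627 to 0.372), beside 2.89% of all genes tested there. Evpl, encoding envoplakin, which ties the envelope to desmosomes, rose from 418 ± 47.6 to 568 ± 74.6 CPM (SD, n = 4 each), a call kept in 2 of those 8 fits. Of 6 tested partners and receptors of S100 and Pglyrp proteins 0 were called, beside 8.87% of all tested genes, and 4 reached an unadjusted p under 0.05, beside 26.2%. For these 6, limma-voom called 0 and DESeq2 called Anxa1 and Anxa2, beside its 15.5% of all genes.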

How the data were processed

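Whole-number counts per gene symbol were deposited by the authors for each of the 8 libraries, with no normalization. Per the submitters' processing notes, the build was mm10 and the tools included TopHat2 2.1.0, Trimmomatic 0.35, FastQC 0.11.4 and SAMtools 0.1.18. How reads were assigned to genes, and whether by strand, is not stated in those notes or the labels. The closing lines of each file, reads outside genes (15.7 to 21.75%) and ambiguous reads (0.918 to 1.11%), were left out. For knockout replicate 4 the sample title was followed, since the file name carries another number.

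Genes were filtered with filterByExpr by group (13016 left), scaled by TMM and tested across the whole table with edgeR 4.0.16 (robust quasi-likelihood, genotype as the only term, R 4.3.3). CPM use TMM-scaled totals, and SE is the log2 fold change divided by the root of its F statistic. DESeq2 1.42.0, limma-voom (limma 3.58.1), other scalings and filters, a replicate block, a term for Y-linked transcripts and leaving out each library were the alternatives. On simulated data for 12924 genes, edgeR recovered 32, 76, 94 and 86% of 50 genes each changed 1.5, 2, 3 and 4-fold between 4 and 4 libraries. Of the calls on these simulated data, 15.9% fell on unchanged genes with DESeq2, 4.64% with edgeR and 3.38% with limma-voom. The members, the 5 related lists, the 11 marker lists and the naming rule were chosen with earlier results of these data known. The rule named Hmgb1, members passing the test, the 3 most abundant and the 3 with the smallest p per family, and up to 4 called genes of each related list, of which 2 listed regulators are not reported here; other members were named after their values were seen.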

Additional observations from a re-analysis of the deposited data

Results flagged for a closer look

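Among the 74 groups of 4 libraries tested (37 members in 2 genotypes), 12 had a library set apart from the other 3 by Dixon's criterion. Chance alone meets it in about 1 group in 20 for normally distributed values. It was applied to CPM without a log scale, so this rate need not hold. In all 12 the library set apart was the highest of its group. Control replicate 3 was set apart for S100a9 (7.20 CPM, next 1.34), Sprr2a3 (53.3 CPM, next 18.2), Sprr2f (1.23 CPM, next 0.415) and Sprr2g (3.45 CPM, next 1.15). Control replicate 4 was set apart for Sprr1a (187 CPM, next 127), Lce1a2 (2.77 CPM, next 1.35) and Pglyrp3 (3.18 CPM, next 2.04). Knockout replicate 2 was set apart for Flg2 (26.2 CPM, next 8.98) and Hrnr (21.9 CPM, next 10.3). Knockout replicate 3 was set apart for S100a4 (16.2 CPM, next 6.62), Lce1f (0.84 CPM, next 0.537) and Lce1l (0.614 CPM, next 0.394). Members share these libraries, so the 12 are not independent of each other.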

How the results depend on the processing

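Of 19 alternatives, 27 of the 37 tested members had a value in each, 9 lacked one under the filter of 1 CPM in 4 libraries, and S100a9 had 17, lacking that filter and DESeq2. In the fits that gave a value, 30 members were not called and 7 were called in at least 1, and 0 of the 11 members with an unadjusted p under 0.05 changed sign. Members called higher and lower were 0 and 1 with library totals only, 3 and 2 with DESeq2, 0 and 1 with the replicate block (S100a4), and 1 and 1 with a Y-linked term (Sprr2g and Tchh). Leaving out 1 library gave 0 to 2 higher and 0 to 1 lower. Genes called over the whole table, 563 higher and 591 lower, became 370 and 997 with library totals only, 1093 and 917 with DESeq2, 375 and 348 with the replicate block, and 141 and 242 among the 5 libraries lacking Y-linked transcripts. Leaving out 1 library gave 200 to 678 and 262 to 569. They moved over 1.5 times without control replicate 2 (247 and 303), knockout replicate 1 (352 and 366) or 2 (200 and 262), and in 1 direction without control replicate 3 (354 higher) or 4 (387 lower) or knockout replicate 4 (359 lower). The numbers shared by replicates do not pair the libraries (correlations of deviations from the group means were -0.228 to -0.0528), and the block is given only as a check. Library totals only moved the median of all genes by -0.11, that of the members to -0.01, and Lce6a and S100a13 to -0.007 and -0.018.

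Of the called genes outside the members, some also lost their call in fits of all 8 libraries. These were Dmkn with RLE or non-robust dispersion, Dmkn and Evpl with library totals only, Krt2 with limma-voom, and Asprv1, Gata3 and Krt2 with no filter. They were Dmkn, Evpl and Gata3 with the Y term, and 2310050C09Rik, Asprv1, Dmkn, Evpl, Klf4 and Maf with the replicate block.

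Other changes of sign were of members with an unadjusted p above 0.05. Rptn was at 0.50 with limma-voom, 0.37 with the replicate block, 0.76 with the Y term and 1.62 without Y-linked libraries. Lce1c and Lce6a were at -0.026 and -0.078 with the Y term. Without Y-linked libraries Lce1a2, Lce1b, Lce1c, Lce1m and Lce6a were at -0.085, -0.18, -0.15, -0.26 and -0.19, and Lor, S100a13, S100a6 and Sprr2a3 at -0.086, -0.001, 0.021 and 0.41. Leaving out 1 library gave ranges across 0 for Lce1a1 (-0.36 to 0.076), Lce1b (-0.052 to 0.55), Lce1c (-0.080 to 0.65), Lce1d (-0.76 to 0.20), Lce1e (-0.93 to 0.18), Lce1l (-0.59 to 0.10), Lce6a (-0.065 to 0.51), Lor (-0.026 to 0.40), Rptn (-0.35 to 0.88), S100a11 (-0.094 to 0.038), S100a3 (-0.64 to 0.04) and Sprr2a3 (-0.72 to 0.26). The cause was not tested. On simulated data 32% of 1.5-fold changes were recovered.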

Other observations

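The 21 members with counts too low to test were highest in sum in control replicate 3. They summed to 367 counts there, against 46 to 114 in the other controls and 48 to 58 in knockouts, and control replicate 3 alone had the highest count for 11 of the 21. The largest parts were S100a8 with 149 counts and Sprr2d with 60. Lce3c and Lce3d, of an Lce group known for its induction in wounded and inflamed skin, had 30 and 25 counts there, against at most 10 and 3 in any other library, and Sprr2e had 19 against at most 3. Lce3d, Lce3e and Lce3f share 49.3, 43.7 and 48% of their 50-base windows with another gene, so their counts are uncertain. S100a7a, the mouse relative of psoriasin, had 8 to 13 counts in controls and 1 to 8 in knockouts.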
